A study of Mus musculus with 6 samples.

Results

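Genes that encode synaptic adhesion molecules of the neurexin, neuroligin, contactin, teneurin, latrophilin and leucine-rich repeat families were examined in mouse neural stem progenitor cells given PTN. The members were the rows of the deposited gene table whose symbol belongs to 1 of 13 named families, which gave 53 of 22322 genes. Of these, 46 reached a count of 10 or more in at least 3 libraries, and 45 of the 46 passed the filter of the test. The cells were wild type (WT). One group received PTN and the other, named Control, its vehicle PBS. RNA was taken at 24 h from 3 samples of each. PTN is given in the labels only as an abbreviation and is taken here to be pleiotrophin, a secreted heparin-binding growth factor, and the series title names a conditioned medium setting without further detail. The labels do not say whether the replicates of a group were separate cultures or animals, and the p-values therefore reflect only how these libraries vary, which may be technical.

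Synaptic adhesion molecules span the cleft between 2 cells and organise the membrane on each side. Neurexins on the presynaptic side bind neuroligins, leucine-rich repeat transmembrane (LRRTM) proteins and calsyntenins, while receptor tyrosine phosphatases bind SLITRK proteins, IL1RAPL1 and LRRC4B. Latrophilins bind teneurins and FLRT proteins, and contactins pair on axons with contactin-associated proteins of the neurexin superfamily. Many of these genes are also active outside synapses, in progenitors and glia, where they take part in adhesion, migration and axon guidance. One of them, contactin 1, is a known binding partner of PTPRZ1, a receptor for pleiotrophin.

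Expected counts summed to between 19267764 and 26341745 per library and were scaled by library depth to CPM for display. Of 13161 genes tested, 1052 passed an adjusted p under 0.05 in edgeR's quasi-likelihood test. That is 7.99% of the genes tested, with 4.93% higher and 3.06% lower in PTN. The 3 PTN libraries lay wholly above or below the 3 Control libraries in 32.9% of the tested genes. Fold changes rose with gene length, the median log2 fold change being -0.24 in the shortest eighth of the genes and 0.31 in the longest. Without PTN 3, which had the fewest counts and the lowest share of mitochondrial transcripts (3.97%, against 4.47% to 8.12% in the other libraries), 2177 genes were called.

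Among the 45 tested members, 6 rose after PTN and 2 fell by edgeR at an adjusted p under 0.05, or 13.3% and 4.44% of them. Those that rose were Cntnap4 (6.9-fold), Nrxn3 (4.65-fold), Il1rapl1 (3.1-fold), Cntn3 (2.69-fold), Tenm4 (2.1-fold) and Flrt2 (2.07-fold), and those that fell were Cntnap2 (9.09-fold) and Lrrtm1 (3.03-fold, n = 3 each). Among the neurexin superfamily members of the list, Cntnap2 fell while Cntnap4 and Nrxn3 rose. In CPM the groups did not overlap in 11 members that were higher and 7 that were lower in PTN, together 40% of the tested members against 32.9% of all tested genes. The median log2 fold change of the tested members was 0.19, against 0.03 over all tested genes, and 57.8% of the members had a positive value, against 52.5% of all genes. At an unadjusted p under 0.05, 14 of the 45 members were higher and 6 lower, where 14.7% and 12.2% of all tested genes were. Leaving out the Control libraries 1 to 3 one by one gave 2, 4 and 3 members higher and 1, 1 and 2 lower. Over all genes the same fits called 216, 232 and 201 higher and 132, 172 and 130 lower. Leaving out the PTN libraries 1 to 3 one by one gave 3, 4 and 11 members higher and 1, 3 and 2 lower. Over all genes those fits called 354, 666 and 1273 higher and 159, 445 and 904 lower, so the calls of all genes moved too. A fit without 1 library also has fewer residual degrees of freedom.

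The members were long transcripts. The length behind each FPKM value can be recovered from the deposited table, because FPKM is the count divided by length and depth, and its median was 4210 bases over the tested members and 2807 bases over all tested genes. When the tested genes were split by length into eighths, 13 and 11 of the 45 members stood in the 2 longest, in which 7.66% and 10.9% of all genes were called higher and 1.95% and 1.95% lower. When a smooth trend on length was removed from each library, 4 members were called higher and 3 lower, where 4.18% and 2.79% of all tested genes were. The calls of Cntnap2, Cntnap4, Nrxn3, Cntn3, Flrt2 and Lrrtm1 stayed, those of Tenm4 (adjusted p = 0.202 in edgeR) and Il1rapl1 (adjusted p = 0.0593 in edgeR) were lost, and Nlgn3 was called lower (adjusted p = 0.0291 in edgeR). The part of length in the members' fold changes was not tested beyond this.

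**Figure D1:**
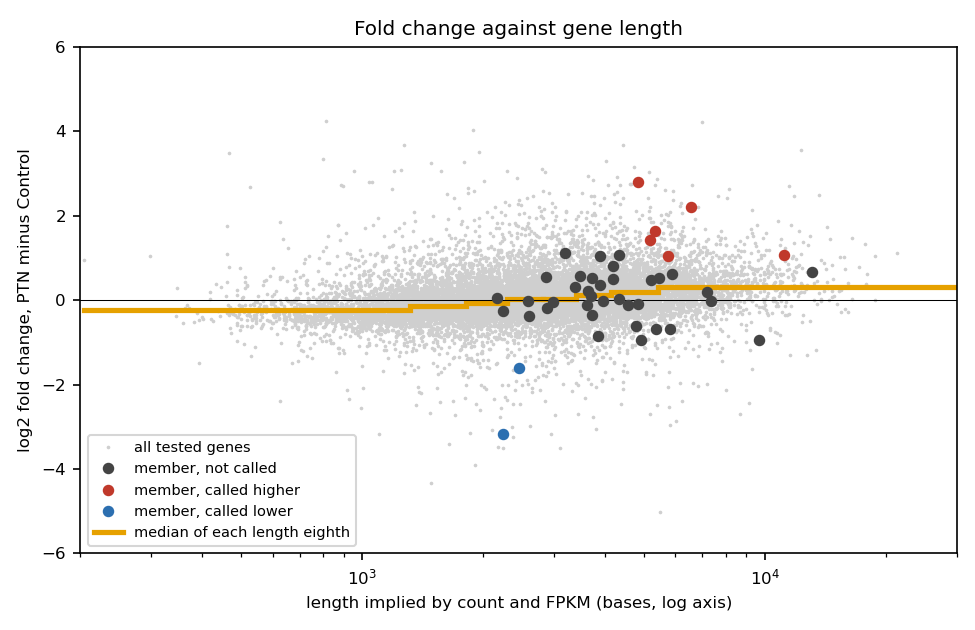
log2 fold change (PTN minus Control, edgeR) against the length implied by count and FPKM (log axis) for all tested genes (grey), with 44 tested members in dark grey, red (called higher) and blue (called lower) and the median of each eighth of the length range as a bar. The 6 members called higher lie in the longer part of the range, and the 2 called lower, Cntnap2 and Lrrtm1, lie at 2245 and 2458 bases.

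**Figure D2:**
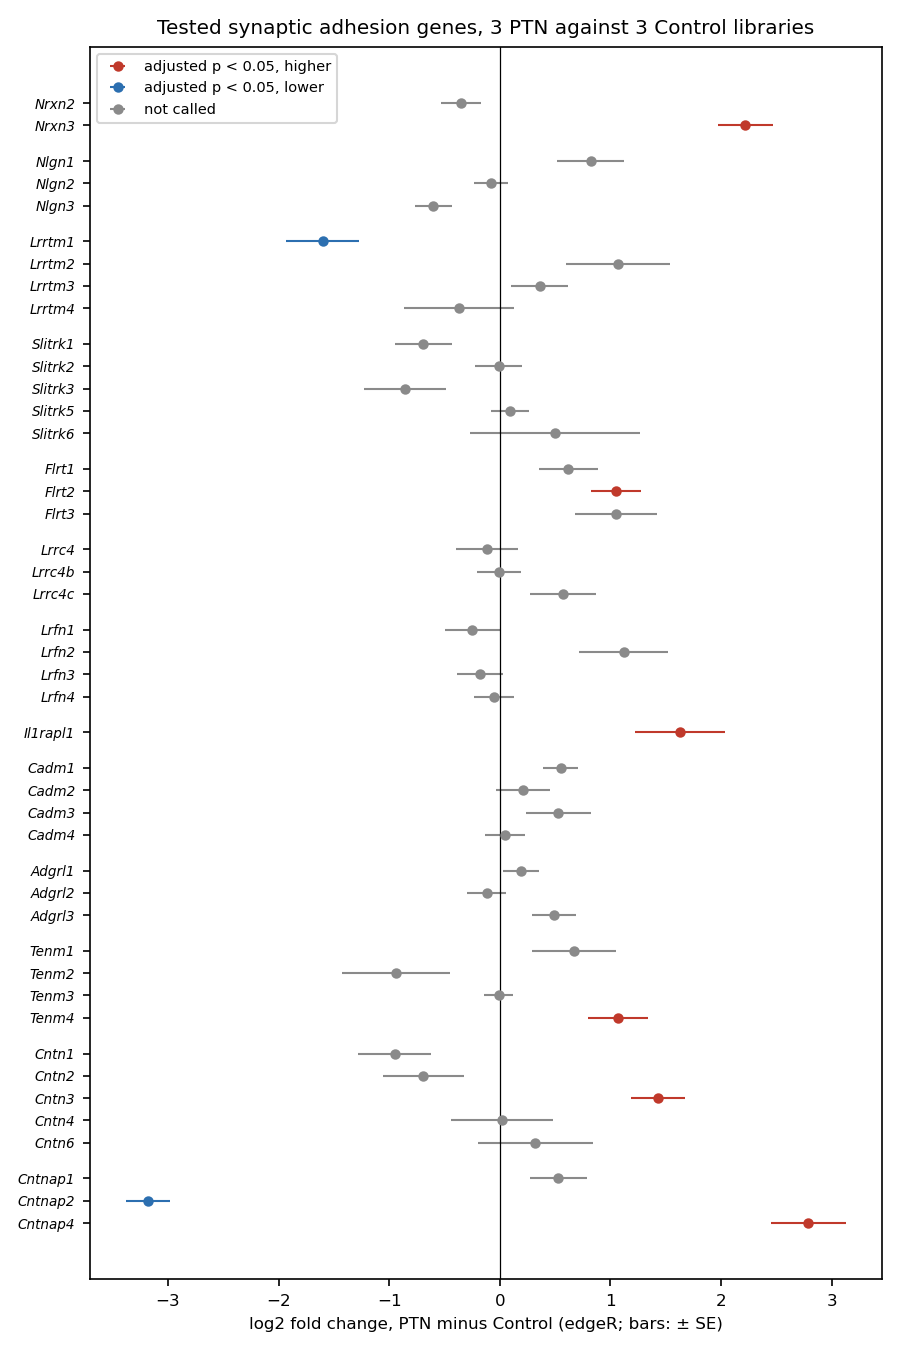
log2 fold change (PTN minus Control) with its standard error for 44 tested members, grouped by family, 3 libraries per group. Cntnap2 at -3.18 and Cntnap4 at 2.79 are the extremes, and most families hold members on both sides of 0.

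The contactin-associated proteins, large transmembrane proteins of the neurexin superfamily, held the extremes of both directions. Cntnap2 encodes CASPR2, which on myelinated axons pairs with contactin 2 and gathers potassium channels. It stood at 9.83, 10.29 and 10.08 FPKM in Control 1, Control 2 and Control 3, and at 0.91, 1.06 and 0.83 FPKM in PTN 1, PTN 2 and PTN 3. The 3 PTN libraries were far below the 3 Control libraries, and within each group the values were close. In CPM the level went from 22.2 ± 2.08 to 2.45 ± 0.34 (SD, n = 3 each), a log2 fold change of -3.18 ± 0.20 (± SE, adjusted p = 0.00041 in edgeR). The call held when any 1 library was left out, with log2 fold changes from -3.30 to -3.09. Some Cntnap2 counts were fractional, which was true of 2 of the tested members, Cntnap2 and Nrxn2.

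Cntnap4, the gene of a related protein known from interneurons, was at 0.22, 0.26 and 0.2 FPKM in the Control libraries and at 1.76, 0.94 and 2.01 FPKM in the PTN libraries. PTN 2 was the lowest of the PTN libraries and still well above every Control library. The counts behind these values were 25, 33 and 21 in Control and 222, 102 and 188 in PTN. The log2 fold change was 2.79 ± 0.34 (± SE, adjusted p = 0.0035 in edgeR), and the call held without any 1 library. Cntnap1, which encodes the paranodal partner of contactin 1, was at 0.68, 0.57 and 0.56 against 0.71, 0.74 and 1.16 FPKM and was not called. Cntnap2 thus made up 91.4% ± 0.667 of the summed FPKM of the family in Control and 28.5% ± 8.78 in PTN, and Cntnap4 2.06% ± 0.246 and 45.1% ± 9.95 (SD, n = 3 each). The summed FPKM of the family was 10.84, 11.23 and 10.96 in Control and 3.41, 2.79 and 4.01 in PTN.

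The length behind the FPKM of Cntnap2 was short for the gene. It was 2049, 2332 and 2244 bases in the Control libraries and 2327, 2662 and 2876 bases in the PTN libraries, the ranges overlapping where PTN 1 lay just under Control 2. The GENCODE M21 annotation on GRCm38, which need not be the one the authors used, places Cntnap2 on the plus strand at chr6:45059357-47304213. Its 24-exon coding transcript is 9827 bases long and begins at 45060061, and its other coding transcripts include a pair of 4 exons each, 1540 and 6279 bases long, that begin at 47244453 and 47244387, in the last part of the gene. Another of 4 exons, from 45059357, is 674 bases long, and one of 3 exons, from 47045060, is 340 bases long. The implied length over all libraries, 2245 bases, was 22.8% of the longest coding transcript. This was the lowest such share among the 31 tested members with a mean of at least 5 CPM in a group, whose median share was 82.1%. As a check, the implied length was within 5% of the annotated one in 98.8% of 758 genes that have a single transcript in GENCODE.

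RefSeq lists 2 start sites for Cntnap2 on GRCm38.p6, which fall at the start of the 24-exon transcript and, at base 47244396, beside the starts of the 1540-base and 6279-base transcripts. The 250 bases before each are shown because the 2 starts give transcripts of such different length, 5′ to 3′ on the plus strand, with each CpG dinucleotide in capitals, at chr6:45059811-45060060 and chr6:47244146-47244395.
Cntnap2 upstream start: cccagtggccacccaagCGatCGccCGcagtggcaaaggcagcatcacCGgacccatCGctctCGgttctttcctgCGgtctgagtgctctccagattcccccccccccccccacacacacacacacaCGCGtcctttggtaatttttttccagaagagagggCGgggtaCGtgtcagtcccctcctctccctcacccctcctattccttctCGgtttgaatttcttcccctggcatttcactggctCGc
Cntnap2 downstream start: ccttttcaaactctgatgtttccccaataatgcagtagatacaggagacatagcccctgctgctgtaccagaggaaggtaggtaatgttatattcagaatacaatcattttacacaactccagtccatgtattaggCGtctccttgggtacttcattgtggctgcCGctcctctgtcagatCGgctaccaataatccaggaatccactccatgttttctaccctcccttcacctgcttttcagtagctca
The upstream window had a GC content of 59.6% with 13 CpG dinucleotides, and the downstream one 45.2% with 3, while the median GC content of such windows over 32851 RefSeq starts was 52.4%. The upstream window held 1 GC box (GGGCGG, either strand) and no CCAAT box, and the downstream window held 2 CCAAT boxes (CCAAT, either strand) and no GC box. Of all RefSeq windows, 32.7% held a GC box and 33.8% a CCAAT box. A match is a description of letters and not a binding site. Gene-level counts do not say from which start the reads came.

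**Figure D3:**
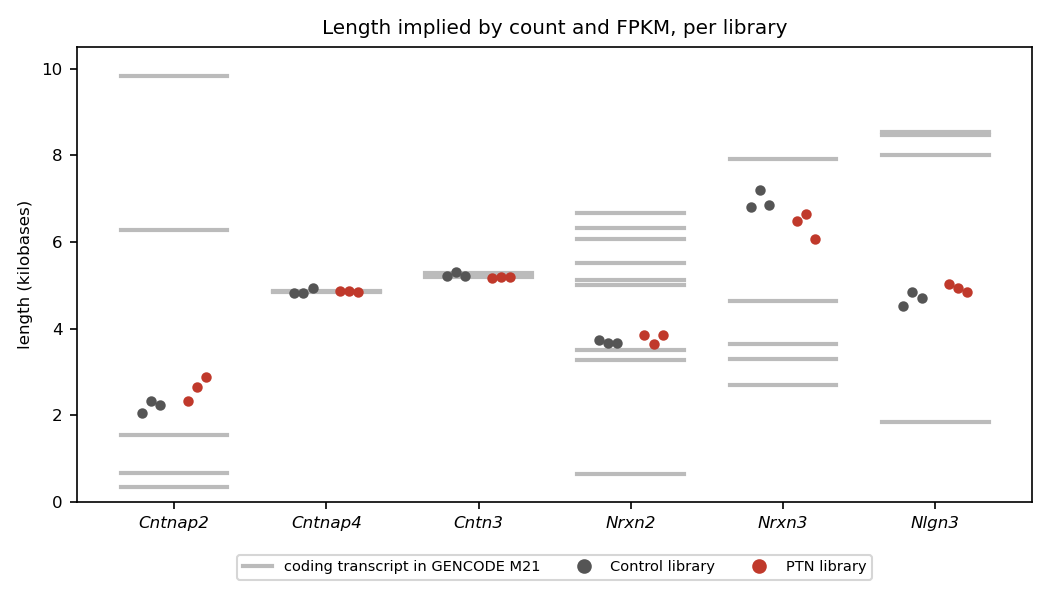
Length in kilobases implied by count and FPKM in each Control (grey) and PTN (red) library for 6 members, with the coding transcripts of GENCODE M21 as grey bars. The points of Cntnap2 lie between 2049 and 2876 bases, far under its 9827-base transcript, while those of Cntnap4 and Cntn3 lie on their annotated transcripts.

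Neurexins are presynaptic receptors whose genes each use several promoters and make long (alpha) and short (beta) forms. Nrxn2 was abundant in these cells and Nrxn3 was low. Nrxn3 was at 0.6, 0.68 and 0.83 FPKM in Control and at 3.19, 4.5 and 2.86 FPKM in PTN, with no overlap of the groups. Its level went from 4.88 ± 0.804 to 22.7 ± 6.35 CPM (SD, n = 3 each), a log2 fold change of 2.22 ± 0.25 (± SE, adjusted p = 0.00291 in edgeR). The call held when any 1 library was left out, with log2 fold changes from 1.97 to 2.37.

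Nrxn2 was at 70.44, 54.97 and 62.4 FPKM in Control and at 37.59, 50.92 and 54.92 FPKM in PTN, where PTN 3 lay just under Control 2. In CPM the groups overlapped, with PTN 3 (212) above Control 2 (202). Nrxn2 was not called (adjusted p = 0.236 in edgeR), and its exons overlap Slc22a12 on the opposite strand.

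Nrxn3 lies on the plus strand at chr12:88722876-90334935 (GENCODE M21, GRCm38), a span of 1612 kilobases. Its implied length was 6800, 7202 and 6854 bases in the Control libraries and 6493, 6637 and 6079 bases in the PTN libraries, lower in each PTN library than in each Control library. The 20-exon coding transcript that begins at 88794504 is 7922 bases long, and the coding transcripts of 7 and 6 exons that begin at 89812483 are 3654 and 2699 bases long. Another 20-exon coding transcript, from 88953399, is 4634 bases long, and a 17-exon one, from 89193106, is 3303 bases long. The implied length of Nrxn2 was between 3635 and 3854 bases in all libraries, against 6667 bases for its longest coding transcript. The differences in implied length were not tested.

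The windows of 250 bases before 2 Nrxn3 starts, at 88794504 and 89812483, are shown for comparison with those of Cntnap2. These starts open the 7922-base transcript and the transcripts of 7 and 6 exons, and RefSeq lists both at the same bases. RefSeq also lists a start at 88953390, beside that of the 4634-base transcript, whose window is not shown. The printed windows run 5′ to 3′ on the plus strand of GRCm38.p6 with CpG dinucleotides in capitals. They lie at chr12:88794254-88794503 and chr12:89812233-89812482.
Nrxn3 start of the 20-exon transcript: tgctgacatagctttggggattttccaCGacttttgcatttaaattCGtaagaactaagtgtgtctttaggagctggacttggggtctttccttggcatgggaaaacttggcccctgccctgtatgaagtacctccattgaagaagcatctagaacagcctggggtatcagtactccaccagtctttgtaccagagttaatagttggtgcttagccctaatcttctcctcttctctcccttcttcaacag
Nrxn3 start of the 7-exon transcript: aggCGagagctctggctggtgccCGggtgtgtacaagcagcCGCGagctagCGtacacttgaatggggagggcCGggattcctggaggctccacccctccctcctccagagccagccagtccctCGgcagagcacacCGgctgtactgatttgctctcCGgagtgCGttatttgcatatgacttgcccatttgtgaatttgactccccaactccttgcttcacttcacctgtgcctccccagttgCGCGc
The first window held 2 CpG dinucleotides at a GC content of 45.6%, and the second 12 at 60%. Neither held a GC box, a CCAAT box or a TATA box (TATAAA, either strand), the last being present in 12.4% of all RefSeq windows. The second held 5 matches of the E-box CANNTG, which reads almost the same on both strands and of which at least 1 is found in 66.2% of all windows.

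Neuroligins are the postsynaptic partners of neurexins, Nlgn1 being known from excitatory synapses, Nlgn2 from inhibitory ones and Nlgn3 from both and from glia. None of the 3 was called. Nlgn3 was at 24.94, 20.34 and 23.84 FPKM in Control and at 13.03, 17.62 and 12.43 FPKM in PTN, every PTN library below every Control library (log2 fold change -0.60 ± 0.17, ± SE, adjusted p = 0.0651 in edgeR). With 1 library left out its adjusted p in edgeR was 0.0243 to 0.186, under 0.05 only without PTN 2. Nlgn1 was at 5.14, 8.65 and 8.02 against 14.07, 16.99 and 7.32 FPKM, so that PTN 3 lay within the Control range (log2 fold change 0.82, adjusted p = 0.126 in edgeR). With 1 library left out its adjusted p in edgeR was 0.014 to 0.363, under 0.05 only without PTN 3. Nlgn2 was at 27.48, 21.87 and 25.22 against 19.24, 24.1 and 24.27 FPKM, with overlapping groups. Nlgn1 made up 13.3% ± 4.09 of the summed neuroligin FPKM in Control and 25.3% ± 7.55 in PTN, and Nlgn3 41.7% ± 1.67 and 28.8% ± 1.06 (SD, n = 3 each).

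**Figure D4:**
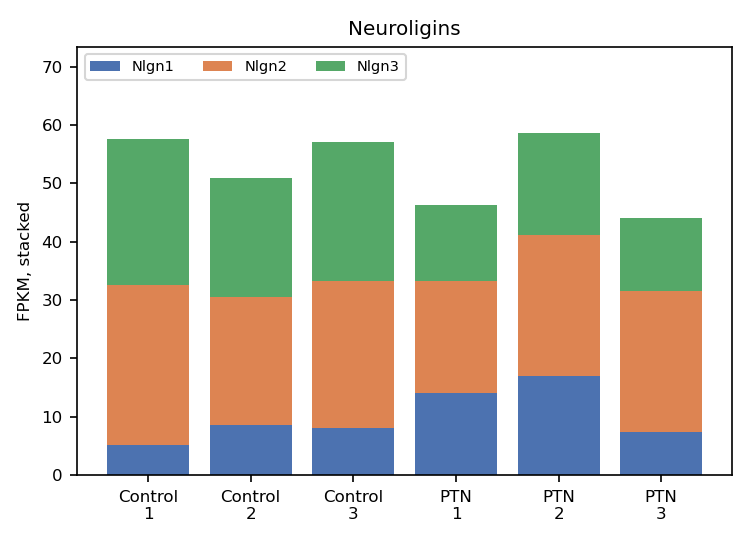
Stacked FPKM of the 3 neuroligin genes in each library. PTN 1 and PTN 2 carry more Nlgn1 than the Control libraries, PTN 3 does not, and Nlgn3 is lower in all 3 PTN libraries.

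The LRRTM proteins are postsynaptic neurexin ligands of excitatory synapses. Lrrtm1 was at 1.42, 1.15 and 0.75 FPKM in Control and at 0.34, 0.56 and 0.48 FPKM in PTN, low in all libraries and lower in each PTN library. It fell by 1.60 ± 0.33 on the log2 scale (± SE, adjusted p = 0.0247 in edgeR), from 2.88 ± 0.745 to 0.946 ± 0.226 CPM (SD, n = 3 each). The call was lost without Control 1, Control 2 or PTN 1, the adjusted p in edgeR reaching 0.109. Lrrtm1, at chr6:77242689-77257791, lies within Ctnna2 on the opposite strand with no shared exon in GENCODE. Lrrtm2 was at 2, 3.8 and 2.59 FPKM in Control and at 6.28, 8.1 and 2.17 FPKM in PTN, another gene in which PTN 3 fell among the Control libraries (adjusted p = 0.185 in edgeR). With 1 library left out its adjusted p in edgeR was 0.0128 to 0.463, under 0.05 only without PTN 3. The exons of Lrrtm2 overlap those of Ctnna1 on the opposite strand, and no source used here says whether counting used strand, so reads of the pair may not be separable. Lrrtm3 and Lrrtm4 were not called, Lrrtm4 being the least abundant of the 4 by the mean of each group, though not in PTN 1 and PTN 2, at 0.23, 0.44 and 0.38 against 0.44, 0.62 and 0.1 FPKM.

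SLITRK proteins bind presynaptic receptor tyrosine phosphatases. Of 6 genes, 5 were tested and none was called. Slitrk2 was the most abundant, at 8.01, 10.8 and 10.76 FPKM in Control and 9.61, 11.24 and 7.55 FPKM in PTN, followed by Slitrk5 at 4.46 to 6.53 FPKM. Slitrk1 (0.67, 0.67 and 0.71 against 0.48, 0.47 and 0.31 FPKM) and Slitrk3 (0.7, 0.96 and 0.93 against 0.55, 0.56 and 0.22 FPKM) were lower in every PTN library than in every Control library, with adjusted p = 0.139 in edgeR and 0.175. Slitrk6 was near the limit of the count rule, with 4, 16 and 5 counts in Control and 16, 17 and 1 in PTN.

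FLRT proteins are repulsive or adhesive ligands that bind UNC5 receptors and latrophilins. Flrt2 was at 1.31, 2.53 and 1.77 FPKM in Control and at 3.81, 4.55 and 3.19 FPKM in PTN, each PTN library above each Control library. It rose from 10.7 ± 2.63 to 22.2 ± 3.86 CPM (SD, n = 3 each), a log2 fold change of 1.05 ± 0.23 (± SE, adjusted p = 0.0285 in edgeR). The call was lost without Control 1, Control 3, PTN 1 or PTN 2, the adjusted p in edgeR reaching 0.121. Flrt3 was at 1.06, 2.33 and 1.34 against 4.59, 3.16 and 1.99 FPKM, with PTN 3 below Control 2 (adjusted p = 0.122 in edgeR). With 1 library left out its adjusted p in edgeR was 0.0331 to 0.351, under 0.05 only without PTN 3. Flrt1 was at 0.46, 0.31 and 0.37 against 0.54, 0.51 and 0.71 FPKM (adjusted p = 0.184 in edgeR). The summed FPKM of the family was 2.83, 5.17 and 3.48 in Control and 8.94, 8.22 and 5.89 in PTN, so the groups did not overlap.

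Latrophilins (Adgrl genes), adhesion G protein-coupled receptors that bind FLRT proteins and teneurins, were not called. Adgrl2 was at 30.6, 30.7 and 33.27 FPKM in Control and at 25.86, 26.59 and 37.02 FPKM in PTN, and Adgrl1 at 22.04 to 32.08 FPKM over all libraries. Adgrl3, the least abundant, was at 6.89, 9.72 and 8.96 against 12.49, 13.79 and 9.34 FPKM, and PTN 3 was below Control 2 (adjusted p = 0.157 in edgeR). With 1 library left out its adjusted p in edgeR was 0.0438 to 0.443, under 0.05 only without PTN 3. Of the teneurins, large transmembrane partners of latrophilins, Tenm3 was the most abundant and the steadiest, at 12.12, 11.72 and 13.18 FPKM in Control and 12.2, 12.11 and 11.66 FPKM in PTN. Tenm4 rose from 3.34 ± 0.249 to 7.03 ± 2.33 CPM (SD, n = 3 each), at 0.38, 0.24 and 0.27 against 0.52, 0.62 and 0.76 FPKM, with a log2 fold change of 1.07 ± 0.27 (± SE, adjusted p = 0.0475 in edgeR). Its call was lost without any single library other than PTN 2, the adjusted p in edgeR reaching 0.155. Tenm1, with 10, 11 and 11 against 18, 20 and 11 counts, and Tenm2, at 6 to 23 counts, were rare and not called.

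Of the remaining leucine-rich repeat genes, those of the netrin-G ligand family (Lrrc4, Lrrc4b and Lrrc4c) and of the SALM family (Lrfn genes), none was called. Lrrc4b, whose protein binds LAR-type phosphatases, was at 60.98, 49.6 and 53.41 FPKM in Control and 41.38, 53.45 and 69.42 FPKM in PTN, the PTN libraries enclosing the Control range. Lrrc4c, the least abundant of the 3, was at 2.61, 3.73 and 2.87 against 4.03, 6.57 and 2.94 FPKM. Lrfn4 was at 18.58, 14.71 and 15.45 against 12.16, 18.42 and 16.09 FPKM, while Lrfn2, a postsynaptic gene that was low here, had every PTN library at or above every Control library on the FPKM scale (0.32, 0.18 and 0.18 against 0.32, 0.62 and 0.53 FPKM, adjusted p = 0.123 in edgeR). Lrfn5 had at most 1 count in a library.

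Il1rapl1, the gene of a postsynaptic receptor-like protein that binds the phosphatase PTPRD and is mutated in X-linked intellectual disability, was rare, with 11, 23 and 12 counts in Control and 69, 44 and 25 in PTN. These counts stood for 0.11, 0.12 and 0.09 FPKM in Control and 0.53, 0.38 and 0.24 FPKM in PTN, PTN 3 being the lowest of its group. Its log2 fold change was 1.63 ± 0.41 (± SE, adjusted p = 0.0449 in edgeR). The call was lost without any single library other than PTN 3, the adjusted p in edgeR reaching 0.177. Il1rapl2 had 1 count in all 6 libraries together.

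The CADM proteins, immunoglobulin-type adhesion molecules also called SynCAMs, included the member of highest level in the whole list. Cadm4 was at 177.43, 130.24 and 137.62 FPKM in Control and 123.07, 172.11 and 164.25 FPKM in PTN, with overlapping groups. Cadm1 was at 20.61, 22.48 and 19.4 against 31.2, 31.71 and 26.52 FPKM, every PTN library above every Control library. Its log2 fold change of 0.55 ± 0.16 was not called (± SE, adjusted p = 0.0652 in edgeR). With 1 library left out its adjusted p in edgeR was 0.0241 to 0.251, under 0.05 only without PTN 3. Cadm2 (9.4 to 17.26 FPKM) and Cadm3 (4.05, 3.06 and 3.04 against 3.45, 6.55 and 3.36 FPKM) had their highest value in PTN 2 and were not called.

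Contactins are glycolipid-anchored immunoglobulin-type proteins of axons and glia. Cntn3 was at 0.61, 0.76 and 0.93 FPKM in Control and at 2.58, 1.87 and 1.76 FPKM in PTN, with no overlap. It rose from 4.01 ± 0.826 to 10.8 ± 2.35 CPM (SD, n = 3 each), a log2 fold change of 1.43 ± 0.24 (± SE, adjusted p = 0.011 in edgeR, and 0.0527 without Control 1). Cntn1 made up 96.3% ± 0.276 of the summed contactin FPKM in Control and 86.3% ± 4.42 in PTN (SD, n = 3 each). It was at 26.96, 45.66 and 39.39 FPKM in Control and at 20.5, 27.27 and 10.78 FPKM in PTN, with PTN 2 just above Control 1 in FPKM and level with it in CPM (131 in both to 3 digits). By unrounded CPM Cntn1 was counted among the 7 members that were lower without overlap. The log2 fold change of Cntn1 was -0.95 ± 0.33 and was not called (± SE, adjusted p = 0.11 in edgeR). Cntn2, the axonal partner of CASPR2, had 36, 38 and 42 counts in Control and 24, 32 and 13 in PTN (adjusted p = 0.25 in edgeR), and Cntn4, Cntn5 and Cntn6 stayed under 0.6 FPKM in every library.

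**Figure D5:**
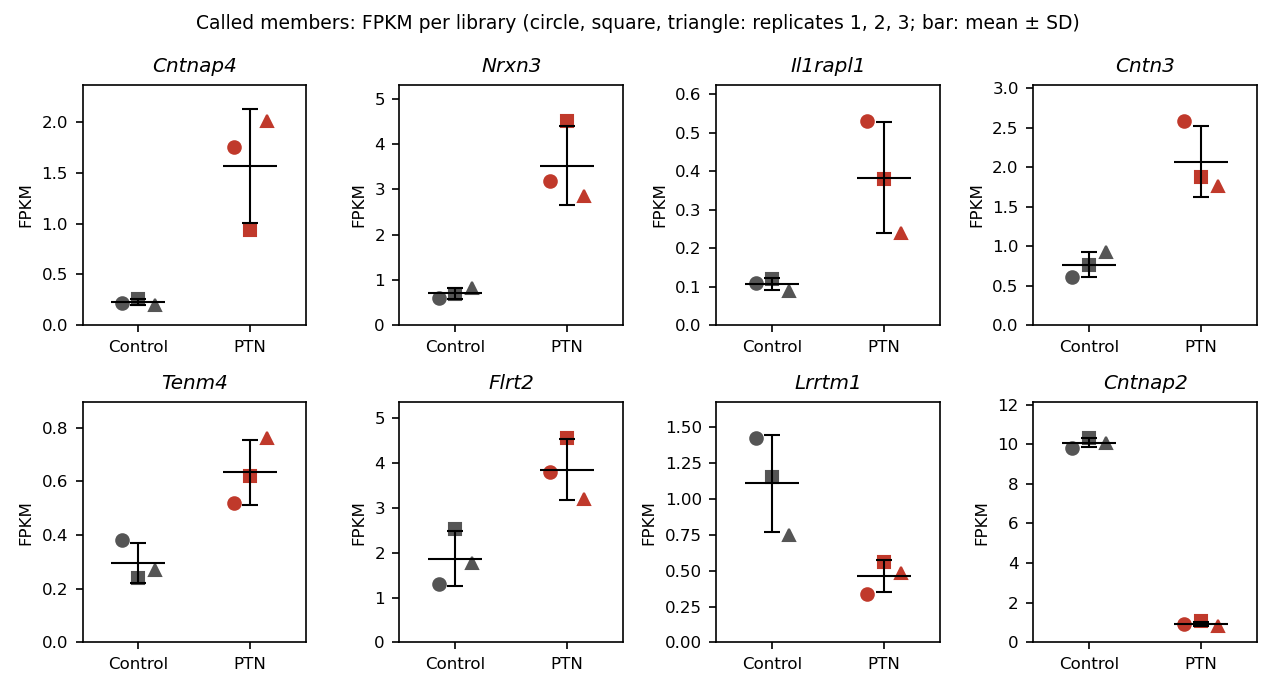
FPKM in each library of the 8 members that passed an adjusted p under 0.05, with the mean and SD of 3 libraries per group and replicates 1, 2 and 3 as circle, square and triangle. In every panel the 3 PTN libraries lie wholly above or below the 3 Control libraries, and only Cntnap2 is above 5 FPKM in any library.

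In 7 members, among them Nlgn1, Lrrtm2, Lrrc4c, Flrt3, Adgrl3 and Slitrk6, PTN 1 and PTN 2 were above every Control library in CPM and PTN 3 was not. This pattern was seen in 15.6% of the tested members and in 13.3% of all tested genes, a share near the background. The opposite pattern, with PTN 1 and PTN 2 below every Control library, was seen in Adgrl2, Lrfn3 and Nrxn2, or 6.67% of the tested members, and in 12.6% of all tested genes. The 25 members with an unadjusted p of 0.05 or more had log2 fold changes between -0.94 (Tenm2) and 0.67 (Tenm1).

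Of the 53 members, 7 did not reach a count of 10 in 3 libraries. The one nearest to it was Cntnap5b, with 8, 10 and 7 counts in Control and 3, 3 and 1 in PTN. Cntnap3, Cntnap5a, Cntn5, Lrfn5 and Il1rapl2 had at most 5 counts in a library, and Cntnap5c had 0 in all. Just inside the rule stood Cntn4, with 6, 15 and 10 against 13, 11 and 6 counts, and Slitrk4, with 8, 11 and 10 against 10, 14 and 4, which was the 1 member that met the rule without passing the filter of the test.

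The genes of binding partners were taken from lists of extracellular ligands and coreceptors, axonal immunoglobulin-type partners, cytoplasmic scaffolds and potassium channel subunits. Of 72 tested genes on these lists 12 rose and 2 fell by edgeR, with a median log2 fold change of 0.22, beside 0.03 over all tested genes. Of all tested genes 4.93% were called higher and 3.06% lower, to be read beside the counts of each list below. With the length trend removed, 9 partner genes were called higher and 4 lower, where 4.18% and 2.79% of all tested genes were. Leaving out Control 1, Control 2 and Control 3 in turn left 6, 7 and 6 partner genes called higher. Without any single Control library or PTN 1, 1 was called lower.

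Among extracellular ligands and coreceptors 5 of 25 tested genes rose and none fell. Clstn2, which encodes a calsyntenin, rose from 1.89 ± 0.39 to 11.2 ± 2.46 CPM (adjusted p = 0.00187 in edgeR), and Tafa2, of a secreted family reported to bind neurexins, from 2.67 ± 0.249 to 17.7 ± 8.72 CPM (SD, n = 3 each, adjusted p = 0.00471 in edgeR). Nxph1, which encodes neurexophilin 1, a ligand of alpha-neurexins, rose 2.51-fold (adjusted p = 0.0111 in edgeR, and 0.0523 without Control 1). Ntng2, the netrin-G2 ligand of LRRC4, rose 2.35-fold (adjusted p = 0.00914 in edgeR, and 0.0682 without Control 3). Mdga1, whose protein blocks neuroligins from neurexins, rose 1.91-fold (adjusted p = 0.0238 in edgeR), but its adjusted p was 0.0733, 0.11 and 0.131 without Control 1, Control 2 and Control 3 and 0.0695 with the length trend removed. Ptprz1, the pleiotrophin receptor that binds contactin 1, was the most abundant of the list at 260 ± 52.4 and 330 ± 70.1 FPKM (SD, n = 3 each) and was not called.

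Among the axonal immunoglobulin-type partners and their ligands 4 of 14 tested genes rose and none fell. The L1-family genes Chl1 and Nrcam rose 2.69-fold (adjusted p = 0.0146 in edgeR) and 1.96-fold (adjusted p = 0.033 in edgeR), that of Nrcam being lost without any single library other than PTN 3 with values up to 0.129. Aplp1, a homolog of the amyloid precursor gene, rose 2.63-fold (adjusted p = 0.00623 in edgeR). Tnc, which encodes the matrix protein tenascin C, a contactin 1 ligand, rose 2.39-fold (adjusted p = 0.0324 in edgeR, but 0.0924 to 0.109 without any single Control library or PTN 1, and 0.1 with the length trend removed). App, Aplp2 and Nptn, at 134 ± 2.53, 201 ± 1.32 and 141 ± 15.1 FPKM in Control (SD, n = 3), were not called.

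Among cytoplasmic partners 3 of 30 tested genes rose and 2 fell. Grip1, which encodes a scaffold of glutamate receptors and liprins, rose 2.47-fold (adjusted p = 0.00344 in edgeR). Cask and Apba1, whose products form a complex with the neurexin tail, rose 1.79-fold (adjusted p = 0.0362 in edgeR) and 2.02-fold (adjusted p = 0.0192 in edgeR). Both calls were lost without any single Control library or PTN 1, with values up to 0.129 for Cask and 0.12 for Apba1, and that of Cask also with the length trend removed (0.0558). The genes that fell encode band 4.1 proteins, the membrane skeleton linkers that bind the tails of contactin-associated proteins and CADM proteins. Epb41 fell 1.94-fold, from 97 ± 1.58 to 49.9 ± 7.4 CPM (SD, n = 3 each, adjusted p = 0.00801 in edgeR), and Epb41l3 2.48-fold (adjusted p = 0.0377 in edgeR, but 0.075 to 0.136 without any single Control library or PTN 1). The other band 4.1 genes of the list, Epb41l1 (log2 fold change -0.34) and Epb41l2 (0.24), were not called and had overlapping groups. None of the 3 tested potassium channel genes that are tied to contactin-associated proteins was called.

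Markers of other cell types were measured beside the members, since in RNA from whole cultures fewer cells of a type and less RNA per cell cannot be told apart. Over all lists 12 markers were called by edgeR, and 2 of them, Aldoc and Pdgfrb, were called whichever single library was left out. Of 14 tested neuronal markers 3 were called higher and none lower: Slc17a7 (3.99-fold), Gad1 (2.28-fold) and Elavl3 (1.57-fold). Their adjusted p values of 0.0499, 0.0342 and 0.0485 in edgeR reached 0.169, 0.147 and 0.172 with 1 library left out. Slc17a7 was rare, at 0.187 ± 0.0634 and 0.755 ± 0.303 CPM (SD, n = 3 each). Tubb3, not called, was lower in every PTN library than in every Control library (29.5 ± 2.54 to 17.6 ± 6.33 CPM, adjusted p = 0.123 in edgeR). Rbfox3 and Snap25, also not called, were higher in every PTN library. Stmn2, Syt1, Gad2 and Nefl had negative log2 fold changes with overlapping groups, and the median of the list was 0.37. The neuronal list summed to 304 to 445 CPM in Control and 366 to 602 CPM in PTN, with Map2 its most abundant gene at 287 ± 67.6 and 397 ± 109 CPM (SD, n = 3 each), and Slc17a6 was at 0 in all libraries. Of 9 tested astrocyte markers 2 were called lower, Gfap (3652 ± 76.6 to 813 ± 756 CPM) and Aldoc (1264 ± 81.5 to 303 ± 141 CPM, SD, n = 3 each), the call of Gfap being lost without any single Control library or PTN 1. The astrocyte sum was 10212 to 10356 CPM in Control and 4900 to 8393 CPM in PTN, but the median log2 fold change of the list was 0.01, and Slc1a3 and S100b, not called, were higher in every PTN library than in every Control library. Of 9 tested oligodendrocyte lineage markers 2 were called lower, Pdgfra and Cspg4, with sums of 1583 to 1859 CPM in Control and 1396 to 1751 CPM in PTN. Stem and progenitor markers summed to 5951 to 6821 CPM in Control and 8143 to 9332 CPM in PTN. Much of this lay in the most abundant gene, Vim, at 3448 ± 73.6 and 5165 ± 243 CPM (SD, n = 3 each). The median log2 fold change of the list was 0.35. Fabp7 (-0.05) and Pax6 (-0.09) were the only negative ones, with overlapping groups. Of the 10 genes Vim and Egfr were called higher, and both calls were lost without any single Control library or PTN 1. Markers of microglia summed to at most 4.01 CPM in any library, and the 1 tested, P2ry12, was not called. Those of endothelial and mural cells summed to at most 14 CPM, with Pdgfrb of 4 tested called lower (5.62-fold). Those of fibroblasts and meninges summed to at most 26.1 CPM, with Foxc1 of 5 tested called higher (2.72-fold) and Pdgfrl lower (2.12-fold). The part of cell composition in the members' changes was not tested.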

How the data were processed

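RNA was extracted with an RNeasy kit and libraries were made with a SMARTER mRNA-Seq kit, per the labels' protocols. The authors deposited 1 table of 22322 genes with expected counts and FPKM per library, per the file headers, and 91.9% to 92.8% of the counts were whole numbers (within 0.005). For the aligner, counter, genome build, annotation and strand setting, nothing is stated in the labels or headers. Columns were matched to libraries by the C or P and the number in their names. Expected counts were rounded and tested with edgeR 4.0.16 (R 4.3.3) by the quasi-likelihood test, with filterByExpr, TMM factors of 0.993 to 1.01 and Benjamini-Hochberg adjustment over 13161 genes, called at an adjusted p under 0.05. The procedure was also run on simulated counts. These had no length trend and no library set apart from its group, so they do not test how the calls depend on such features. Standard errors (SE) were taken as the absolute log2 fold change over the root of the F statistic. Libraries of a group differed by more than sampling noise. FPKM, used as deposited by the authors, served to compare levels between genes. Length was implied from count, FPKM and library total, and the length trend was a natural spline with 4 degrees of freedom fitted in each library. Alternatives were DESeq2 1.42.0, other scalings and filters, the length trend, a replicate block, a looser threshold (0.1) and fits with 1 library removed. RefSeq (GRCm38.p6) held upstream windows for 40 of the 53 members.

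The members and lists were chosen with earlier results of these data known. Values per library are given for called members and for the most and least abundant member of each family by FPKM, and beyond these for members near the threshold, chosen after their values were seen. Of each partner list, called genes up to the 8 of smallest p and up to 4 abundant genes not called are named. Epb41l1 and Epb41l2 were added after their values were seen. Of marker lists, counts, sums and the most abundant gene were set as the rule, and all other markers were named after their values were seen. Samples with the same replicate number had correlations of -0.506, 0.362 and -0.00494 for replicates 1, 2 and 3, by deviations from the group means. With 3 libraries a group these values cannot show whether the numbers mark pairs. The numbers were not used as pairs in the reported test. The values of 1 member are not reported here, and counts over the members include it.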

Additional observations from a re-analysis of the deposited data

How the results depend on the processing

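Other scalings (DESeq2 size factors, library totals) and filters (none, or a count of 10 in 3 libraries) left the counts of called members at 6 higher and 2 lower. The DESeq2 Wald test called 1852 genes, 10 members higher and 4 lower, and 23 partner genes, 19 higher and 4 lower. At an adjusted p under 0.1 edgeR called 1913 genes, and 4 partner genes were lower, as many as with the length trend removed (4). Leaving out 1 library at a time gave 331 to 2177 called genes, 2 to 11 members higher, 1 to 3 members lower, 7 to 20 partner genes called, 6 to 17 of them higher and 1 to 3 lower, and a median member log2 fold change of 0.03 to 0.24. With the replicate block, 726 genes were called (660 of the 1052 kept), with 4 members higher and 2 lower, 12 partner genes and a median member log2 fold change of 0.16. A fit with the block also has fewer residual degrees of freedom. Of the calls of members and partner genes, those of Il1rapl1 (edgeR adjusted p = 0.0661), Tenm4 (0.0666), Mdga1 (0.0523) and Cask (0.0684) were lost with the block, and no other. Of the 12 called markers of cell types 7 were called with the block. By deviations from the group means, 2 of 3 Control libraries correlated best with a PTN library of another number. For the 34 genes followed singly, the 20 members with an unadjusted p under 0.05 and the 14 called partner genes, 476 alternative values were computed, of which 407 kept direction and side of the threshold, 53 lost the call, 16 gained it and 0 reversed. These genes were picked by their p in the same data, and the 0.1 threshold reuses the main fit. The absence of reversals was therefore largely fixed in advance. Among the other 25 members, not called in the reported test, the sign changed in 28 alternative values of 12 members. With 3 libraries a group that varied by more than sampling noise, and low counts in several called members, small differences may have been missed. The causes of the changes between settings were not tested.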
